A study of Mus musculus with 4 samples.

Results

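CD8 T cells of the aged mouse kidney were chosen by their marker UMIs (unique molecular identifiers, which count captured transcripts) in single-cell transcriptomes. A barcode was kept with at least 500 UMIs, at least 300 genes and at most 50% mitochondrial UMIs. It was called a CD8 T cell with at least 2 UMIs of the CD3 genes Cd3d, Cd3e and Cd3g together and at least 2 of Cd8a and Cd8b1 together. Barcodes with any UMI of Cd4, Foxp3 or Cd79a, over 2 of the cycling genes Mki67 and Top2a, over 9 of the complement genes C1qa, C1qb and C1qc, or over 3 of the tubule genes Lrp2 and Slc34a1 were left out. The gate found 1307 CD8 T cells among 50605 kept barcodes of 76278 in the files. The kidneys came from male C57BL/6 mice aged 19 months that had received the small molecule BPTES or its vehicle DMSO for 1 month, with 2 libraries in each group. Sorting on the leukocyte antigen CD45 put 20000 negative and 9000 positive cells of a tissue into each library, so the ratio of leukocytes to other kidney cells was set by the sort. The number of animals behind a library is not stated, and p-values over libraries measure only the spread between these 4 libraries. The BPTES libraries gave 285 and 339 CD8 T cells, and the DMSO libraries gave 318 and 365.

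CD8 T cells recognise peptides on MHC class I molecules and kill target cells with perforin and granzymes or act on them through cytokines. Naive cells recirculate through lymph nodes with homing receptors such as Ccr7, whereas cells that stay in tissue carry retention and adhesion molecules such as Itgae, Itga1 and Cxcr6. Granzyme K marks a population of CD8 T cells that accumulates in many tissues of aged mice and carries transcription factors and receptors otherwise known from chronically stimulated, exhausted T cells. Activated T cells take up glutamine as a source of carbon and nitrogen.

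The label was checked on genes that the gate did not use. The T cell receptor alpha constant gene Trac was detected in 96.2% to 97.3% of cells of a library. The gamma delta constant gene Trdc was found in 1.18% to 2.11% of cells, the NK cell receptor gene Ncr1 in 0.274% to 1.47% and Klrb1c in 6.58% to 9.73%. Cd40lg, mainly a CD4 T cell gene, was found in 5.26% (BPTES 1), 7.67% (BPTES 2), 25.2% (DMSO 1) and 12.6% (DMSO 2) of cells. Of the genes that chose the cells, Cd8b1 was detected in 97.6% to 98.1%, Cd8a in 94.4% to 97.2% and Cd3e in 96.8% to 99.1%, which is a description of the gate. At the edge of the gate, 5, 9, 7 and 14 cells (BPTES 1, BPTES 2, DMSO 1 and DMSO 2, the order used throughout) had exactly 2 Cd8 UMIs, and 21, 17, 30 and 23 barcodes that met the other limits had 1 and were outside. The median cell held 11513.5 to 12050 UMIs and 3464 to 3593 genes, the CD8 T cells of a library summed to 3851369 to 4906692 UMIs, and the whole libraries held 249881074 to 297947661. No barcode was a CD8 T cell in 2 libraries, and in each pair of libraries 1 or 2 CD8 T cell barcodes of the first were among all barcodes of the second. A doublet caller marked 15 to 20 cells in each library (4.42% to 5.96%), and these were kept. BPTES 2 stood apart from the other 3 libraries in the makeup of its CD8 T cells, as given below.

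Most CD8 T cells of the aged kidney were in a Gzmk state. Cells with at least 1 Gzmk UMI made up 857 of 1307 (65.6%). Cells with no Gzmk and at least 2 UMIs of a set of naive T cell markers that includes Ccr7 and Lef1, here called naive-marker cells, made up 305 (23.3%). Cells with neither and at least 1 UMI of Itgae, Itga1 or Cxcr6, called residency-marker cells, made up 133 (10.2%), and 12 cells (0.918%) were in none of these states. The residency-marker state was read only in the 145 cells with neither. Its share is therefore not that of all CD8 T cells with these genes. The same holds for the naive-marker share, since only 405 of the 857 Gzmk-positive cells had fewer than 2 naive-marker UMIs. In 29, 41, 49 and 57 cells the Gzmk state rested on a single UMI.

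**Figure D1:**
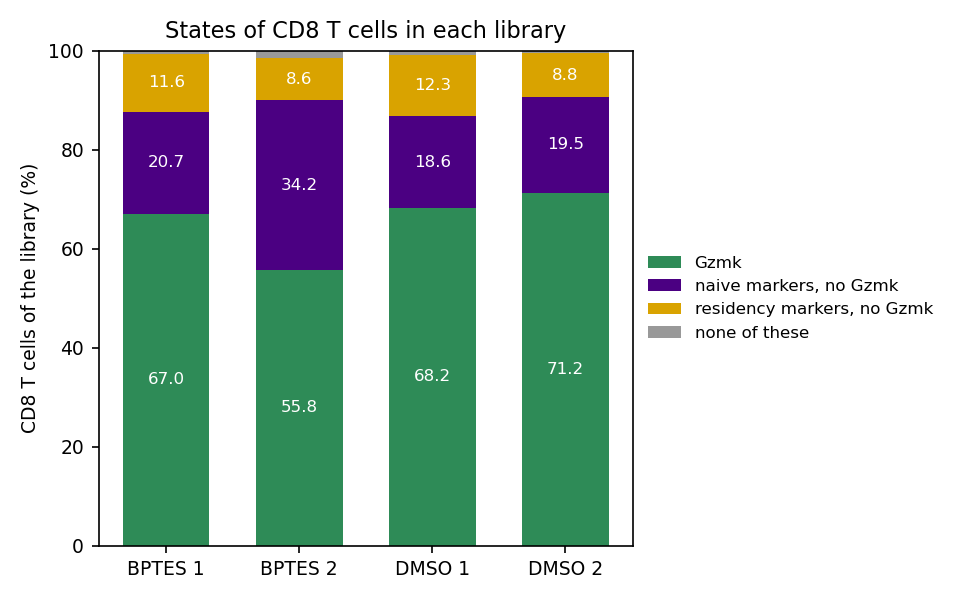
Stacked bars give the percent of the CD8 T cells of each library in the Gzmk, naive-marker, residency-marker and remaining state. BPTES 2 has the lowest Gzmk bar (55.8%) and the highest naive-marker bar (34.2%), and the other 3 libraries lie between 67.0% and 71.2% for Gzmk.

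Gzmk encodes granzyme K, a secreted serine protease. The gene (ENSMUSG00000042385) lies on the minus strand of chr13:113171608-113225908 in the GENCODE annotation of GRCm38, the build that the submitters' processing notes call mm10. The 250 bases before its RefSeq start (chr13:113180966-113181215, minus strand, GRCm38.p6) are shown because Eomes, a T-box transcription factor, was higher in Gzmk-positive than in other CD8 T cells in the comparisons below. This window lies inside the GENCODE interval of Gzmk, whose start is upstream of the RefSeq start. Capitals mark the letters AGGTGT, the core that T-box proteins are known to bind, or their reverse complement ACACCT.
Gzmk: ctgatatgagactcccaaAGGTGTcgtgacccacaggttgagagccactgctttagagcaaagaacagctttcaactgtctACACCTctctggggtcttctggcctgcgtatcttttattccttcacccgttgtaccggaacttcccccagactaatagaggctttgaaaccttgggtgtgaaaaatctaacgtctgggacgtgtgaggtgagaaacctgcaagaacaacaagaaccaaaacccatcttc
These letters stood at -232 and -169 from the RefSeq start of Gzmk, once at -80 before Gzma, and nowhere in the same window before Gzmb or Eomes. Of 32851 promoters of the same length, 3887 (11.8%) held them on either strand. A match is a run of letters and shows no binding.

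The detection of Gzmk was far above that in cells that should lack it. Gzmk was found in 67.0% of the CD8 T cells of BPTES 1 (exact Clopper-Pearson 95% interval 61.2% to 72.4%), 55.8% of BPTES 2 (50.3% to 61.1%), 68.2% of DMSO 1 (62.8% to 73.3%) and 71.2% of DMSO 2 (66.3% to 75.8%). Proximal tubule cells, gated by at least 4 UMIs of Lrp2 and Slc34a1 and no Ptprc, had a Gzmk UMI in 0.288%, 0.260%, 0.454% and 0.428% of cells at a higher depth (median 15719 to 19427 UMIs). In NK cells the share was 4.05%, 1.79%, 2.97% and 2.04%, and in conventional CD4 T cells, gated with at least 1 Cd4 and no Cd8 UMI, it was 30.0%, 22.8%, 26.3% and 30.6% at a median of 10525 to 11445 UMIs. Intervals on shares cover counting error only. Summed per library, the Gzmk level was 247, 161, 185 and 233 per 1000000 UMIs of those cells (plain CPM) in CD8 T cells, 76.7, 65.6, 70.0 and 109 in CD4 T cells, and at most 3.75 in NK cells.

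The share of CD8 T cells did not separate the treatments. Among barcodes with the leukocyte gene Ptprc, the CD8 T cell share was 5.19% and 6.71% in the BPTES libraries, against 5.47% and 7.01% in the DMSO libraries. The means were 5.95% ± 1.07 (SD, n = 2) and 6.24% ± 1.09 (SD, n = 2), and the groups overlapped (exact two-sided permutation test, p = 0.666667). Of CD8 and conventional CD4 T cells together, CD8 T cells were 57.6% and 57.9% with BPTES, next to 55.1% and 61.1% with DMSO (exact permutation p = 1). With 2 libraries against 2, the smallest p that this test can give is 0.333333.

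The Gzmk share was lower and the naive-marker share higher in both BPTES libraries than in either DMSO library under the gate as given. However, BPTES 2 carried most of both differences, and the groups overlapped in some other settings. They did not overlap at a mitochondrial limit of 25%, without predicted doublets or at a gate minimum of 3 UMIs. In these settings the Gzmk difference was -8.50, -8.80 and -9.93 points and the naive-marker difference 8.35, 8.65 and 9.35 points. The Gzmk share was 61.4% ± 7.97 (SD, n = 2) under BPTES and 69.7% ± 2.12 (SD, n = 2) under DMSO, a difference of -8.35 percentage points at the smallest possible exact permutation p of 0.333333. Without BPTES 2 the difference was -2.72 points. Cells thinned to 2000 UMIs, which left out 6 shallower cells, gave 31.1% ± 6.18 (SD, n = 2) and 32.4% ± 2.49 (SD, n = 2) and groups that overlapped (exact permutation p = 1). With at least 2 Gzmk UMIs asked for, the shares were 56.8% and 43.7% under BPTES and 52.8% and 55.6% under DMSO (difference -3.97 points, exact permutation p = 1). The naive-marker share was 20.7% and 34.2% under BPTES and 18.6% and 19.5% under DMSO (exact permutation p = 0.333333). That difference was 8.46 points with all libraries, 1.70 without BPTES 2 and 9.50 after thinning. When cells with any C1q, Lrp2 or Slc34a1 UMI were left out, the Gzmk shares were 68.9% and 48.5% against 63.1% and 70.6% (-8.15 points, exact permutation p = 0.666667). In the same setting the naive-marker shares were 19.3% and 35.6% against 19.4% and 19.3% (8.09 points, exact permutation p = 1), so that both shares overlapped between the groups. Because these shares count only cells with no Gzmk, the share of cells with at least 2 naive-marker UMIs was also taken with or without Gzmk, a setting added after the data were seen. It was 59.3% and 65.2% under BPTES and 51.3% and 55.9% under DMSO (8.67 points, exact permutation p = 0.333333), and the difference was 5.72 points without BPTES 2. Thinned to 2000 UMIs, these shares were 17.6% and 28.0% against 12.01% and 13.7% (9.90 points, exact permutation p = 0.333333), and the difference was 4.71 points without BPTES 2. The residency-marker share was 11.6% and 8.55% in the BPTES libraries, against 12.3% and 8.77% in the DMSO libraries, and the groups overlapped (exact permutation p = 0.666667). After thinning that share was 33.4% ± 4.35 (SD, n = 2) against 40.8% ± 2.34 (SD, n = 2), with 36.5% and 30.3% under BPTES below both DMSO values of 42.5% and 39.2% (exact permutation p = 0.333333), a state that a cell can enter by losing its Gzmk or naive-marker UMIs to the thinning.

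The levels of genes that had no part in defining the states are given by state as a description, with no test. Eomes, which drives memory and exhausted CD8 T cell programs, was at 180, 141, 108 and 182 plain CPM in the Gzmk state, 63.3, 50.9, 52.6 and 47.7 in naive-marker cells, and 14.8, 3.19, 12.6 and 21.7 in residency-marker cells. The 3 states did not overlap for this gene. Tox, a regulator of exhaustion, was at 988, 688, 789 and 790 in the Gzmk state and at 170 to 251 in naive-marker cells. In residency-marker cells it reached 923 in BPTES 1 and was 262 to 390 in the other libraries, so 1 library lay within the range of the Gzmk state. The inhibitory receptor gene Pdcd1 was at 92.4 to 122 plain CPM in the Gzmk state, 4.63 to 10.3 in naive-marker cells and 35.6 to 232 in residency-marker cells. The granzyme gene Gzmb was at 178 to 322 in the Gzmk state, 30.8 to 116 in naive-marker cells and 113 to 440 in residency-marker cells, and Ifng, the gene of interferon gamma, at 186 to 247, 37.5 to 150 and 188 to 294. For Pdcd1, Gzmb and Ifng the Gzmk and residency-marker states overlapped. The glutamine carrier gene Slc1a5 was at 88.0 to 115, 69.4 to 95.4 and 86.2 to 110, which overlapped across all 3 states.

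**Figure D2:**
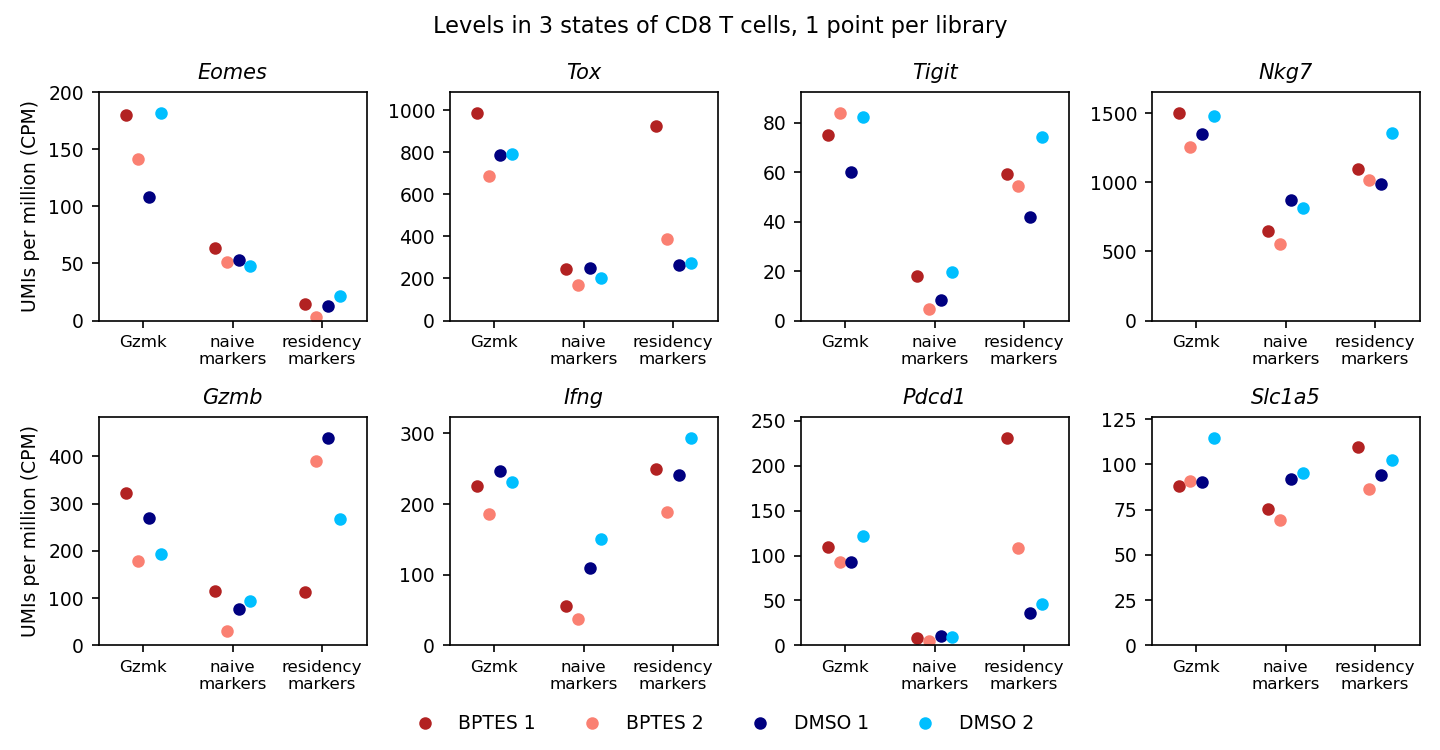
Each panel gives the level of 1 gene in plain CPM (y axis, linear from 0) in Gzmk, naive-marker and residency-marker CD8 T cells, with 1 point for each library and colours for BPTES 1, BPTES 2, DMSO 1 and DMSO 2. Eomes separates the 3 states without overlap, while Slc1a5 overlaps across them.

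Gzmk-positive cells were then tested against all Gzmk-negative CD8 T cells with edgeR's quasi-likelihood test on UMI sums, with library as a block. Of 10104 genes tested, 724 (7.17%) passed an adjusted p of 0.05, with 301 (2.98%) higher and 423 (4.19%) lower in Gzmk-positive cells. Values below are CPM after TMM scaling, a correction for composition, unless called plain CPM. Gzmk-negative cells were the deeper ones in every library, with medians of 12310 to 15016.5 UMIs against 11025 to 11605.5. The count fell to 256 without BPTES 1, 344 without BPTES 2 and 438 without DMSO 2, and DESeq2 called 372 (3.68%). Dendritic cell markers, none of which passed, had a positive fold change in 8 of 9 genes (median log2 fold change 0.90), and their part in the result was not tested.

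Genes of exhausted and chronically stimulated T cells rose in part in the Gzmk state. Eomes was at 172, 139, 105 and 178 CPM in Gzmk-positive and 52.2, 49.0, 38.8 and 42.2 CPM in Gzmk-negative cells (log2 fold change 1.68, SE 0.11, adjusted p = 2.58e-05). Every Gzmk-positive sum lay above every Gzmk-negative sum. Tox was at 941, 679, 766 and 771 CPM against 444, 226, 255 and 219 CPM (1.51, SE 0.11, adjusted p = 0.000135). Tigit, an inhibitory receptor, was at 71.6, 83.0, 58.4 and 80.3 CPM against 29.1, 12.5, 19.7 and 31.8 CPM (1.70, SE 0.22, adjusted p = 0.00448). Of the exhaustion list without Gzmk itself, 5 of 13 genes tested rose and none fell, at a median log2 fold change of 0.74 against 0.0016 over all genes. Besides the 3 above these were the inhibitory receptor gene Lag3 (1.28, adjusted p = 0.0344) and Nrp1 (0.74, adjusted p = 0.00523). Pdcd1 was at 104, 92.0, 89.7 and 119 CPM against 64.9, 20.7, 18.4 and 18.0 CPM and did not pass (1.84, SE 0.37, adjusted p = 0.0615).

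Genes of naive and recirculating T cells fell. Satb1, a chromatin organiser of naive T cells, was at 36.7, 78.3, 48.0 and 54.8 CPM in Gzmk-positive and 371, 696, 320 and 419 CPM in Gzmk-negative cells (log2 fold change -3.03, SE 0.10, adjusted p = 7.63e-08). The groups were far apart in every library. Of the naive and memory list 9 of 10 genes fell, at a median of -1.28. Among them were Satb1, the lymph node homing receptor Ccr7 (-3.97), the transcription factors Lef1 (-1.41), Tcf7 (-1.05) and Klf2 (-1.06), the exit receptor S1pr1 (-1.30), the interleukin 7 receptor Il7r (-0.77) and Ly6c2 (-0.42). Outside the list, Cmah (-2.57), Sidt1 (-1.48), Aff3 (-1.44), Bbs9 (-1.37), Klf3 (-1.34), Emb (-1.31), Txk (-1.20) and Fam241a (-1.10) were among the 12 lower genes of highest fold, with adjusted p from 1.21e-05 to 0.0311.

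Effector genes did not move as 1 group. Nkg7, a cytotoxic granule protein, was at 1431, 1238, 1307 and 1448 CPM against 793, 687, 900 and 959 CPM (log2 fold change 0.71, SE 0.08, adjusted p = 0.000884). Of 14 cytotoxic genes, Nkg7, the pore-forming Prf1 (0.48) and the death ligand Fasl (0.75) rose, whereas Gzmm (-1.36), another granzyme, and the effector transcription factor Zeb2 (-0.45) fell. Gzmb (0.73, adjusted p = 0.0569) and Gzma (0.50, adjusted p = 0.713) did not pass. Among 11 cytokine and chemokine genes, the chemokine genes Ccl4 (1.15) and Ccl5 (0.45) and the death ligand gene Tnfsf10 (0.43) rose. Ifng was at 215, 184, 240 and 226 CPM against 113, 65.8, 154 and 211 CPM and did not pass (0.75, adjusted p = 0.167).

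NK cell receptor genes fell in the Gzmk state: 6 of the 12 tested passed, none rose, and the median was -0.84. They were the activating receptor Klrk1 (-0.42), the lectin receptors Klrc1 (-0.80), Klrc2 (-1.20) and Klrb1c (-2.13), the adaptor Tyrobp (-0.33) and Klra1. Klra1, a receptor of the Ly49 family, had no UMI in Gzmk-positive cells of any library and was at 10.4, 10.6, 8.85 and 5.53 CPM in Gzmk-negative cells. By state, it was found at 7.07 to 14.1 plain CPM in naive-marker cells and outside these only in the residency-marker cells of DMSO 1.

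Adhesion and retention genes split. The tissue retention receptor Cxcr6 was at 433, 345, 446 and 421 CPM against 287, 195, 357 and 269 CPM (log2 fold change 0.59, SE 0.08, adjusted p = 0.00274), and the residency regulators Prdm1 (0.66) and Runx3 (0.30) also rose. Itgae, the integrin chain that binds epithelial E-cadherin, fell from 48.5, 35.1, 59.9 and 46.3 CPM in Gzmk-negative to 10.3, 18.0, 16.0 and 28.7 CPM in Gzmk-positive cells (-1.39, SE 0.25, adjusted p = 0.0175). These were 4 of 11 residency genes. Among 12 migration genes the inflammatory chemokine receptor Cxcr3 (0.56) and the integrin chains Itga4 (0.64) and Itgb1 (0.37) rose, and the gut homing genes Ccr9 (-2.34) and Itgb7 (-0.29) were among the 4 that fell, as was S1pr1.

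Interferon and receptor signalling genes rose in part. All 16 interferon response genes tested had a positive fold change (median 0.59), and 5 passed, namely Ifit1 (1.54), Mx1 (0.81), Gbp7 (0.60), Zbp1 (0.59) and Gbp4 (0.36). Nr4a2, an orphan nuclear receptor induced by T cell receptor signals, was at 391, 369, 451 and 408 CPM against 139, 100, 205 and 165 CPM (1.45, SE 0.11, adjusted p = 0.000175). With Cd28 (0.48) and Irf4 (0.53) it made 3 of 13 T cell receptor activation genes. Of 16 immediate early and heat shock genes, which tissue dissociation also induces, Jund (0.30), Ier3 (0.88) and Hsph1 (0.48) rose. The interleukin 10 receptor gene Il10ra (1.12), Chn2 (0.99), Hip1 (0.98), the inflammatory caspase gene Casp1 (0.90), Ttc39c (0.88), Gimap7 (0.82) and Sh2d2a (0.82) rose with adjusted p from 0.000175 to 0.0235. Tcrg-C2, a constant segment of the gamma chain, also rose (1.01, adjusted p = 0.0391). None of 13 glutamine and glutamate genes, 11 ATF4 stress genes, 10 senescence and p53 genes, 13 mitochondrially encoded genes or 15 glycolysis genes passed. Slc1a5 was at 83.8, 89.8, 87.6 and 112 CPM against 88.0, 79.8, 91.2 and 97.4 CPM (0.07, SE 0.09, adjusted p = 0.767).

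Because the Gzmk-negative cells held many cells with naive markers, the test was repeated without cells that had at least 2 UMIs of those markers, in both states. This left 405 of the 857 Gzmk-positive and 145 Gzmk-negative cells. In that setting, added after the first result was seen, 56 of 7608 genes (0.736%) passed, 23 higher (0.302%) and 33 lower (0.434%), and 27 of them had passed with all cells. Eomes was at 168, 128, 96.8 and 161 CPM against 19.0, 8.73, 12.2 and 20.7 CPM and had a wider gap than before (log2 fold change 3.16, SE 0.23, adjusted p = 3.53e-08). The interferon genes Ifit3 (2.74), Isg15 (1.76) and Ifit1 (1.74), the receptor gene Epha3 (3.92), the costimulatory receptor Cd27 (0.89), Il10ra (0.72) and Nkg7 (0.43) also rose. Lower in the Gzmk state were the interleukin 18 receptor chains Il18r1 (-1.23) and Il18rap (-0.86), the costimulator Icos (-1.20), the transcription factors Ikzf2 (-1.39), Klf2 (-0.84), Zeb2 (-0.87) and Rora (-0.79), and the integrin chain Itgb7 (-0.64). Satb1 was at 29.2, 19.1, 16.0 and 23.8 CPM against 46.2, 40.7, 104 and 59.2 CPM and still passed (-1.51, SE 0.30, adjusted p = 0.0226). Those of these genes that the naming rule does not cover were chosen after their values were seen.

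Several differences of the first test were no longer called. Tox was at 1177, 769, 1029 and 839 CPM against 952, 404, 269 and 263 CPM (1.18, SE 0.35, adjusted p = 0.464), and the groups overlapped through BPTES 1. Ccl4 (0.42, adjusted p = 0.692) and Nr4a2 (0.86, adjusted p = 0.283) did not pass. Gzmb (-0.10, adjusted p = 0.979) and Ifng (0.14, adjusted p = 0.866) passed in neither test. Cd209a, a gene of dendritic cells, passed at 1.01, 20.2, 98.3 and 57.8 CPM in Gzmk-positive cells against 0, 0, 16.3 and 0 CPM. With cells of at least 2 naive-marker UMIs left out of the Gzmk-negative cells alone, 58 of 9209 genes passed (0.63%). That filter leaves such cells in the Gzmk-positive state only, and in it Aff3 went from -1.44 to 0.80 and Cmah from -2.57 to 0.79. With predicted doublets removed as well, 45 of 8787 genes (0.512%) passed, Cd209a was not among them, and Eomes remained (3.46, SE 0.21, adjusted p = 5.04e-08).

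**Figure D3:**
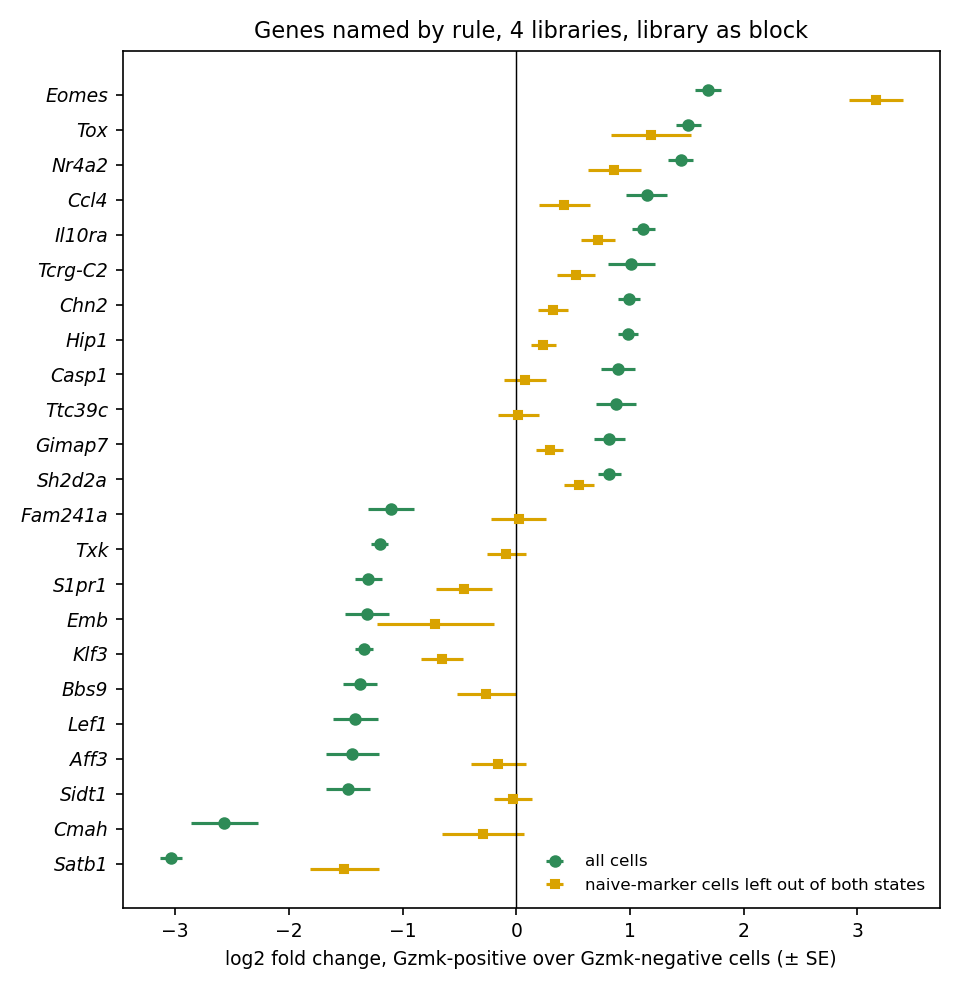
Points give the log2 fold change (x axis) with SE of 23 genes named by rule, Gzmk-positive over Gzmk-negative CD8 T cells, for all cells (circles) and with naive-marker cells left out of both states (squares; Lef1 helps to define those cells and has no square). Most squares lie nearer 0 than their circles, whereas that of Eomes moves from 1.68 to 3.16.

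BPTES against DMSO gave 1 called gene in the CD8 T cells. Of 11545 genes tested, Spp1 alone passed (0.00866%), and 886 genes (7.67%) had an unadjusted p under 0.05. DESeq2 called 37 genes, and the edgeR count was 136 without BPTES 1, 5 without BPTES 2, 0 without DMSO 1 and 1 without DMSO 2. Spp1, the gene of the secreted phosphoprotein osteopontin, was at 17.5 and 9.40 CPM under BPTES and 428 and 417 CPM under DMSO (log2 fold change -4.99, SE 0.25, adjusted p = 0.0468). That call was lost without DMSO 1 (adjusted p = 0.204) or DMSO 2 (adjusted p = 0.213). The DMSO levels rested on 1 barcode in each library, which held 1653 of 1849 Spp1 UMIs in DMSO 1 (89.4%) and 1700 of 2066 in DMSO 2 (82.3%). Both barcodes were predicted doublets, and that of DMSO 1 also held 145 UMIs of other tubule marker genes against a median of 0. Without the barcode of most Spp1 in each library, the levels were 14.9, 8.54, 46.4 and 75.2 plain CPM, no gene passed, and 882 had an unadjusted p under 0.05. Proximal tubule cells held Spp1 at 600 and 759 plain CPM under BPTES and 1103 and 1489 under DMSO.

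**Figure D4:**
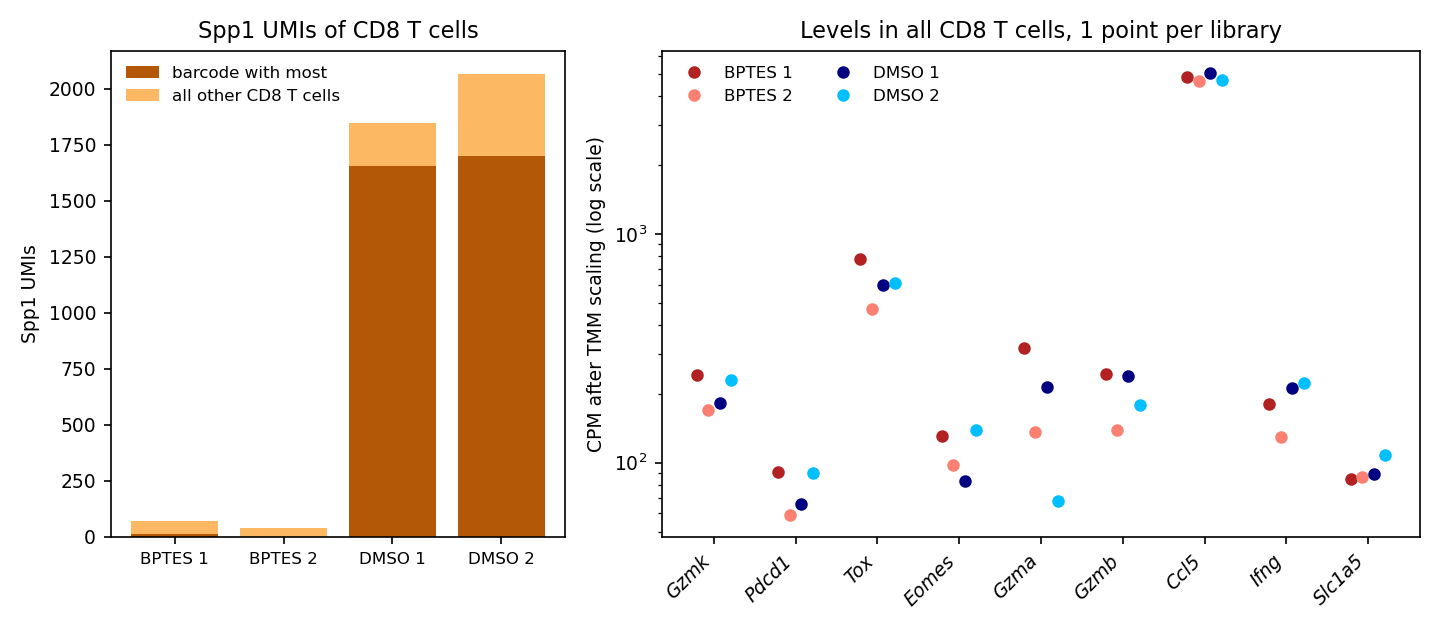
Left, Spp1 UMIs of the CD8 T cells of each library (linear axis from 0), split into the barcode with most and all other cells. Right, CPM after TMM scaling (log axis) of 9 genes fixed by rule, 1 point for each library; the BPTES and DMSO points of Gzmk, Tox and Eomes overlap, and the DMSO bars at left rest on 1 barcode each.

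Gzmk, whose UMIs define the Gzmk state, and the other genes fixed by rule showed no treatment difference past the threshold. Gzmk was at 241 and 170 CPM under BPTES and 182 and 231 CPM under DMSO (log2 fold change -0.01, SE 0.21, adjusted p = 0.994). Tox was at 773 and 472 CPM and 596 and 613 CPM (0.04, SE 0.25, adjusted p = 0.979), and Eomes at 131 and 98.2 CPM and 83.0 and 139 CPM (0.04, SE 0.30, adjusted p = 0.981). The libraries of the groups overlapped for all 3. Ifng was lower in both BPTES libraries, at 180 and 130 CPM against 212 and 222 CPM, and did not pass (-0.49, SE 0.16, adjusted p = 0.621). Pdcd1 (-0.06), Gzma (0.70, SE 0.82), Gzmb (-0.13) and Ccl5 (-0.04) had adjusted p from 0.867 to 0.969. Slc1a5 was at 85.3 and 86.2 CPM and 89.3 and 108 CPM (-0.21, SE 0.12, adjusted p = 0.702).

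No member of the 15 functional gene lists passed in this comparison. Groups that did not overlap were common, at 4678 of the 11545 genes (40.5%), so such a gene is not by itself a result. Of 10 naive and memory genes, 9 had a positive fold change (median 0.59 against -0.00094 over all genes) and 7 did not overlap. Lef1 was at 323 and 500 CPM under BPTES and 202 and 237 CPM under DMSO (0.91, adjusted p = 0.621), and Klf2 at 440 and 603 CPM and 379 and 328 CPM (0.56, adjusted p = 0.621). In both genes BPTES 2 was the highest library, as in its naive-marker share. BPTES 2 was also highest for the heat shock gene Hsph1, chosen after its values were seen. It was at 266 and 426 CPM under BPTES and 143 and 160 CPM under DMSO (1.19, adjusted p = 0.596). Of the 16 immediate early and heat shock genes, 7 had a positive and 9 a negative fold change, and 8 did not overlap. Of 11 residency genes 10 had a negative fold change (median -0.27) and 8 did not overlap. Of 14 T cell receptor activation genes 11 were negative (median -0.34) and 8 did not overlap. Of 14 glutamine and glutamate genes 8 were negative (median -0.03) and 8 did not overlap. Among 13 NK receptor genes 7 were negative and 9 did not overlap. Negative fold changes also prevailed among interferon response (14 of 17), glycolysis (12 of 15) and cytokine and chemokine genes (9 of 11). Their medians were -0.087, -0.035 and -0.27 in that order. Of the genes of these lists 5, 6 and 2 did not overlap, shares near or below the 40.5% of all genes. In CD4 T cells, 8 of 10 naive and memory genes (median 0.65) and 8 of 11 residency genes (median 0.20) were positive. Most T cell receptor activation (10 of 14), interferon response (13 of 17) and glycolysis genes (13 of 15) were negative there. So were most glutamine and glutamate (11 of 14) and cytokine and chemokine genes (8 of 14). NK receptor genes (10 of 11, median 0.995) and immediate early and heat shock genes (13 of 16) were mostly positive in CD4 T cells.

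The 10 further genes of lowest p did not pass. Bhlhe40, a transcription factor of tissue-resident T cells, was at 116 and 111 CPM under BPTES and 195 and 208 CPM under DMSO (log2 fold change -0.83, SE 0.09, adjusted p = 0.224). The cold-inducible RNA-binding protein gene Cirbp (-0.85) and Atp1b1 (-1.50) were lower and the p53 target Sesn1 (0.71) was higher in BPTES, each at an adjusted p of 0.286. Pid1 (-1.04), Dab2 (-1.82), Klf12 (-0.84), Odc1 (-0.51) and Rsrp1 (0.58) had adjusted p from 0.462 to 0.596. Conventional CD4 T cells had the same sign for Bhlhe40 (-0.44), Cirbp (-1.07), Atp1b1 (-1.70), Sesn1 (0.59), Odc1 (-0.82) and Rsrp1 (0.52). The sign was opposite there for Pid1 (0.16), Dab2 (0.24) and Klf12 (0.33), and none of these genes passed in CD4 T cells. Cd40lg, the ligand of CD40 and mainly a CD4 T cell gene, was chosen after its values were seen. It was found in 5.26% and 7.67% of CD8 T cells under BPTES and 25.2% and 12.6% under DMSO (12.2, 17.9, 68.9 and 42.6 plain CPM), at -1.83 and an adjusted p of 0.596. Proximal tubule cells had a Cd40lg UMI in 0.180% to 0.217% of cells, and conventional CD4 T cells in 80.3% to 83.7%.

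No gene of the 14 cell type marker lists passed between the treatments, and the summed levels of 4 lists did not overlap between the groups. Of the single genes tested in these 4 lists, 4 of 6 plasma cell and 6 of 9 dendritic cell markers did not overlap. The counts were 2 of 3 for other tubule segments and 2 of 3 for CD4 T cells, against 40.5% of all genes tested. Igkc, an immunoglobulin light chain gene of plasma cells, was at 347 and 477 CPM under BPTES and 96.2 and 102 CPM under DMSO (log2 fold change 2.06, SE 0.17, adjusted p = 0.148). It was found in 97.5% and 99.1% of CD8 T cells under BPTES and 67.0% and 64.9% under DMSO, and in 98.7%, 99.3%, 68.2% and 69.5% of proximal tubule cells. All 9 plasma cell markers were detected, and they summed to 681 and 841 plain CPM under BPTES and 228 and 257 plain CPM under DMSO. The 9 dendritic cell markers summed to 1881 and 893 plain CPM under BPTES and 5147 and 2706 plain CPM under DMSO, and all were detected. Of these, Cd74 was at 798, 364, 1995 and 1088 plain CPM, and at 327, 60.2, 865 and 618 without predicted doublets. Proximal tubule cells held Cd74 in 48.6%, 42.2%, 61.2% and 62.1% of cells, next to 47.0%, 49.0%, 61.0% and 66.8% of CD8 T cells. The level of Cd74 in proximal tubule cells was lower, at 41.1, 40.5, 89.8 and 103 plain CPM. The 8 markers of other tubule segments summed to 20.5 and 15.2 plain CPM under BPTES and 63.0 and 60.3 plain CPM under DMSO. The CD4 T cell markers summed to 182 and 126 plain CPM against 185 and 213 plain CPM, nearly without a gap. The sums of the other 10 lists overlapped, as for macrophage markers at 1628 and 587 plain CPM against 525 and 598 plain CPM. The part of these transcripts in the results above was not tested.

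The treatment difference itself was compared between Gzmk-positive and Gzmk-negative cells by an interaction test, and 5 of 10960 genes (0.0456%) passed. Among them was Bach2, a transcription factor that holds T cells in a naive or memory-like condition. It was at 125 and 207 CPM under BPTES and 201 and 212 CPM under DMSO in Gzmk-positive cells, and at 512 and 725 CPM and 327 and 297 CPM in Gzmk-negative cells (difference of log2 fold changes -1.32, SE 0.14, adjusted p = 0.0198). Gzmk-negative cells under BPTES held the highest Bach2 levels, and the call was lost without DMSO 2 (-1.20, adjusted p = 0.070). Zbtb16, the transcription factor PLZF of innate-like T cells, was at 18.0, 16.3, 2.42 and 1.70 CPM in Gzmk-positive and 17.8, 14.5, 32.6 and 33.7 CPM in Gzmk-negative cells (4.08, SE 0.45, adjusted p = 0.025). It no longer passed without BPTES 2 (3.99, adjusted p = 0.0731), without DMSO 2 (3.82, adjusted p = 0.084) and with limits of 0 for C1q and tubule genes (1.94, adjusted p = 0.914).

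The nearest population, conventional CD4 T cells (947 cells), served as the comparison for CD8 T cells. Of 11042 genes tested with library as a block, 1541 (14.0%) passed, 713 higher (6.46%) and 828 lower (7.5%) in CD8 T cells. Genes used by the gate were not tested. Cytotoxic genes rose almost as a whole, 12 of 14, at a median log2 fold change of 1.67 against 0.0078 over all genes. Gzmb was at 248, 140, 243 and 180 CPM in CD8 and 8.72, 16.9, 11.5 and 21.1 CPM in CD4 T cells (3.76, SE 0.35, adjusted p = 0.00811), and Prf1 at 98.9, 104, 94.2 and 111 CPM and 14.3, 13.3, 13.6 and 14.3 CPM (2.87, SE 0.10, adjusted p = 2.82e-08). The lineages did not overlap for either gene. NK cells, which were not part of that test, held Gzmb at 222, 140, 250 and 247 plain CPM, next to 251, 132, 244 and 180 plain CPM in CD8 T cells. Their Gzma levels were 1060 to 2102 plain CPM, above the 68.5 to 326 plain CPM of CD8 T cells. Gzma (5.21, adjusted p = 0.0323), Gzmm (4.61), S1pr5 (2.75), Klrg1 (2.25), Nkg7 (1.83), Cst7 (1.51), Ctsw (1.13), Cx3cr1 (1.07), Zeb2 (1.07) and Fasl (0.96) were the others.

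Gzmk itself was higher in CD8 T cells, at 245, 172, 185 and 234 CPM against 74.1, 66.0, 68.8 and 108 CPM (1.40, SE 0.09, adjusted p = 7.63e-06). Of the 14 exhaustion genes, Eomes (2.24), the receptors Cd160 (3.43) and Slamf7 (1.41), and Pdcd1 (0.33, adjusted p = 0.0434) rose with it, and the receptors Ctla4 (-1.47) and Nrp1 (-1.22) fell. Tox was at 785, 478, 604 and 622 CPM in CD8 and 605, 464, 536 and 803 CPM in CD4 T cells, and the lineages overlapped (0.05, SE 0.12, adjusted p = 0.845). The NK receptor genes Klrd1 (3.11), Klrk1 (2.46), Klrc1 (2.46), Klrc2 (1.65) and Klrb1c (1.06) rose and Zbtb16 (-1.27) fell, of 11 tested. The chemokines Ccl4 (3.57) and Ccl5 (2.68) rose, while Il10 (-3.66), Lta (-1.62), Csf1 (-1.43), Il2 (-1.10) and Tnfsf14 (-0.35) fell. The gamma chain segments Tcrg-C2 (3.39) and Tcrg-C4 (2.22) were higher in CD8 T cells, of which 1.18% to 2.11% had Trdc.

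Costimulatory and activation genes were lower in CD8 T cells, with 8 of 14 T cell receptor activation genes falling. Icos, a costimulator of helper T cells, was at 68.4, 64.8, 55.1 and 67.6 CPM in CD8 and 324, 316, 291 and 351 CPM in CD4 T cells (log2 fold change -2.33, SE 0.06, adjusted p = 4.62e-09). Tnfrsf4 (-5.37), Cd5 (-1.17), Egr1 (-0.92), Cd28 (-0.76), Nfkbia (-0.57), Tnfaip3 (-0.45) and Nr4a1 (-0.32) also fell, and Nr4a2 rose (1.32). The helper T cell transcription factor Maf (-2.48) and Slamf1 (-1.94) fell, as did Tnfsf8 (-3.07), Kcnq5 (-2.51), Tbc1d4 (-2.33), St6gal1 (-2.26), Ttn (-2.14), Asb2 (-2.08), Capg (-1.78), St6galnac3 (-1.74) and Odc1 (-1.72). Of 16 immediate early and heat shock genes 8 fell and Ier3 rose. Among 14 glutamine and glutamate genes the amino acid carrier Slc7a5 (0.82) and the transcription factor Myc (1.26) rose and the aminotransferase Got1 (-0.78) fell. Slc1a5 (0.08, adjusted p = 0.554) did not pass.

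**Figure D5:**
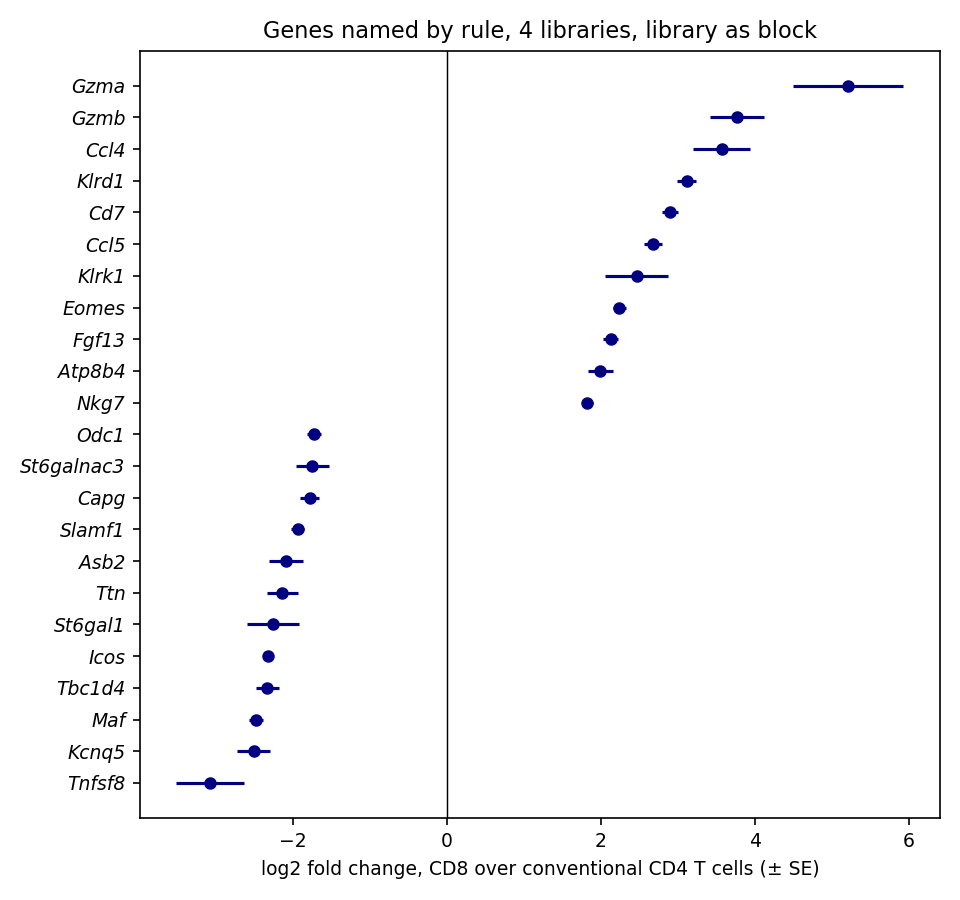
Points give the log2 fold change (x axis) with SE of 23 genes named by rule, CD8 over conventional CD4 T cells, with library as a block. Gm44174, with nearly no UMI in CD4 T cells, is not plotted; among the plotted genes Gzma (5.21) and Gzmb (3.76) lie at the upper end, and Tnfsf8 (-3.07) at the lower end.

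UMIs counted for Gm44174 separated the lineages almost completely. This long intergenic noncoding RNA gene (ENSMUSG00000108289, chr6:71353035-71373284, plus strand, GRCm38) lies between Cd8b1 and Cd8a and ends 142 bases before Cd8a on the same strand. UMIs of this gene and of Cd8a transcripts that reach into it cannot be told apart in count matrices, so the values are those of the annotated region. It was at 291, 306, 270 and 255 CPM in CD8 T cells, and CD4 T cells held 0, 0, 0.310 and 0 CPM. Within CD8 T cells it was at 270 to 324 plain CPM in the Gzmk state, 199 to 234 in naive-marker cells and 285 to 392 in residency-marker cells. Because Cd8a and Cd8b1 UMIs chose the cells, this neighbour of theirs is given as a description.

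The treatment effect on levels differed between CD8 and CD4 T cells for 3 of 11874 genes (0.0253%), Aqp1, Fst and Rcbtb2. In CD4 T cells alone 26 of 10840 genes (0.24%) passed, with Igkc 2.48 higher on the log2 scale (SE 0.10, adjusted p = 1.05e-05). Igkc is not particular to T cells. Proximal tubule cells held it at 255 and 498 plain CPM under BPTES and 61.3 and 59.4 under DMSO. Of the functional lists, Satb1 and Klrk1 were called higher and Nr4a2 and Ifi27l2a lower under BPTES in CD4 T cells.

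Single V genes held a large share of the UMIs of T cell receptor beta V genes (Trbv) in the CD8 T cells. The files list 35 Trbv genes, of which 18 to 21 were detected in a library. Trbv12-2 held 71 of 193 Trbv UMIs in BPTES 1 (36.8%, exact 95% interval 30.0% to 44.0%), in 48 cells. It also led in DMSO 1 with 49 of 176 UMIs (27.8%) and in DMSO 2 with 40 of 275 (14.5%, exact 95% interval 10.6% to 19.3%). Trbv3 was close in DMSO 2 with 35 of 275 UMIs (12.7%, 9.03% to 17.3%), in 21 cells. These intervals take each UMI as independent although a cell can hold several, so they may be too narrow. The lead of Trbv12-2 in DMSO 2 was not tested. In BPTES 2, Trbv1 and Trbv16 led with 48 of 253 UMIs each (19.0%), and Trbv12-2 held 8.70%. When cells with any C1q, Lrp2 or Slc34a1 UMI were left out, Trbv19 led in DMSO 1 (15 of 67 UMIs against 13 for Trbv12-2) and Trbv13-2 in DMSO 2 (17 of 88 against 15). In each library the 3 to 5 leading genes held at least as many Trbv UMIs as all others together. These are shares of UMIs of gene segments and not clone sizes.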

How the data were processed

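Kidney cells were sequenced with 10x Genomics GEM-X chemistry, and the authors deposited raw UMI counts per gene and barcode, made with Cell Ranger 8.0.1 on mm10 per the submitters' processing notes. Other upstream steps are not given in the sources used here. The members and gene lists were chosen with earlier results of these data known. UMI counts of gated cells were summed per library, since cells are not replicates, and tested with edgeR 4.0.16 (quasi-likelihood, robust, TMM, filterByExpr, Benjamini-Hochberg over all genes, threshold 0.05). The 15 gate genes stayed in library sizes and were not tested. Shares were compared by exact permutation over libraries, with thinning to 2000 UMIs as an exact expectation. Scrublet (scanpy 1.11.5) predicted doublets at 0.4% per 1000 barcodes. DESeq2 1.42.0 was an alternative. Named genes were up to 12 in each direction of largest fold with mean log2 CPM of at least 6 and 1 direction in 4 libraries (for treatment, mean log2 CPM of at least 5, then the 10 of lowest p), list members past the threshold, the 4 highest of each list and fixed genes. CD8 T cell UMIs per library are given with the cells. The tests were checked on simulated data. The symbol of 1 listed gene found no match. Some genes of these lists and of the state definitions are not reported here.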

Additional observations from a re-analysis of the deposited data

Results flagged for a closer look

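For 8 genes the BPTES against DMSO difference was itself different between 2 sets of cells by an interaction test in edgeR. Values are CPM after TMM scaling in BPTES 1, BPTES 2, DMSO 1 and DMSO 2.

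Between Gzmk-positive and Gzmk-negative CD8 T cells, Bach2 differed by -1.32 on the log2 scale and Zbtb16 by 4.08, with the levels given in the text. Spp1 differed by -4.34 (adjusted p = 0.00709), at 19.2, 9.02, 629 and 573 CPM in Gzmk-positive and 14.1, 9.70, 21.7 and 29.6 CPM in Gzmk-negative cells. With predicted doublets removed that difference was -0.74 and did not pass, nor did it with limits of 0 for C1q and tubule genes (-4.97, adjusted p = 0.914). Wfdc17 differed by -2.30 (adjusted p = 0.0335), at 22.6, 11.6, 115 and 42.8 CPM against 48.3, 22.3, 44.2 and 19.95 CPM. It turned to 1.90 (adjusted p = 0.904) with limits of 0 for C1q and tubule genes, and the call was lost without BPTES 2 (adjusted p = 0.0655), without DMSO 1 (adjusted p = 0.0871) and without predicted doublets (-3.33, adjusted p = 0.0501). Cxcl3 differed by a fitted 12.17 (adjusted p = 0.0198), a size that depends on the prior count because several libraries held no UMI. It was at 62.1, 0, 0 and 0.567 CPM in Gzmk-positive and 0.743, 0, 0 and 44.7 CPM in Gzmk-negative cells, so 1 library on each side carried it, and the call was lost without BPTES 1 or without DMSO 2 (adjusted p = 1 in both).

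Between CD8 and conventional CD4 T cells, Aqp1, a water channel of the proximal tubule, differed by 5.06 (adjusted p = 0.00804). It was at 52.3, 2.10, 1.41 and 2.25 CPM in CD8 and 15.5, 1.08, 14.2 and 26.2 CPM in CD4 T cells, and the call was lost without BPTES 1 (adjusted p = 0.25). Fst differed by a fitted 13.25 (adjusted p = 0.0178), at 22.6, 0, 0.469 and 0 CPM against 0.397, 0, 54.6 and 48.2 CPM, with the same dependence on the prior count. Its call was lost without BPTES 1 as well (adjusted p = 1). Rcbtb2 differed by -1.12 (adjusted p = 0.0178), at 115, 101, 172 and 131 CPM against 282, 216, 182 and 137 CPM, and was lost without BPTES 1 (adjusted p = 0.173) or BPTES 2 (adjusted p = 0.087).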

How the results depend on the processing

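Shares rest on 2 libraries a group and could not reach an exact p under 0.333333. Counts of BPTES against DMSO calls moved between settings: from 1 gene to 37 with DESeq2, 0 with RLE scaling, 23 with no filter on low counts, 0 at a mitochondrial limit of 25%, 3 without predicted doublets, 5 with limits of 0 for C1q and tubule genes, 0 without the barcode of most Spp1 in each library, 13 in Gzmk-negative cells alone, and 0 to 136 with 1 library left out (136 without BPTES 1, 5 without BPTES 2, 0 without DMSO 1). The replicate numbers are not stated to pair the libraries, and the deviations of the libraries numbered 1 had a correlation of 0.20 over 5015 genes; with the replicate block 6 genes passed. The Spp1 call was lost in 8 of 15 alternatives.

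For Gzmk-positive against Gzmk-negative cells, the 724 calls became 372 with DESeq2, 355 with no library block, 218 with limits of 0 for C1q and tubule genes, 56 without naive-marker cells in both states, 58 without them among Gzmk-negative cells alone, 45 without these and doublets, and 256 to 495 with 1 library left out. Of 419 pairs of a named gene and an alternative, 307 kept the call, 99 lost it and 13 turned: Ccl4 (-0.053 and -0.19), Cmah (0.79 and 0.77), Sidt1 (0.43 and 0.43), Aff3 (0.80 and 0.79), Txk (0.17 and 0.13) and Fam241a (0.14 and 0.15), the first without naive-marker cells among the Gzmk-negative and the second without doublets too, and Fam241a (0.021) without naive-marker cells in both states, none of them called.

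The 5 interaction calls between states became 8 with RLE scaling, 10 at a gate minimum of 3 UMIs, 8 without predicted doublets, 249 with no filter, 12 with limits of 0, where Wfdc17 turned (1.90, adjusted p = 0.904), and 10 to 86 with 1 library left out. The 3 between lineages became 12 without predicted doublets, 58 with no filter, 6 with limits of 0 and 0 to 104 with 1 library left out. CD8 against CD4 calls fell from 1541 to 727 with limits of 0; the named genes kept the call in 227 of 260 pairs.

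The difference in the CD8 share of Ptprc-positive cells (-0.286 points) turned to 0.363 with limits of 0 and ran from -1.05 to 0.484 with 1 library left out. That in the CD8 share of CD8 and CD4 T cells (-0.364) turned to 0.321 at a gate minimum of 3 and 1.80 with limits of 0, and ran from -3.38 to 2.65. That in the residency-marker share (-0.449) turned to 0.233 at a gate minimum of 3, was -7.42 after thinning, and ran from -2.20 to 1.30. That in the Gzmk share was -1.33 after thinning. The cause of these changes was not tested.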
